A study of Mus musculus with 5 samples.

Results

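The proteins of the cytosolic ribosome were examined in mouse liver under dietary and genetic obesity and under nordihydroguaiaretic acid (NDGA), an antioxidant plant lignan known as a lipoxygenase inhibitor. The genes were those whose platform symbol begins with Rpl or Rps followed by a number, together with Rpsa and the stalk genes, leaving out the Rps6k kinases. This gave 23 of the 16637 genes named on the array, measured by 36 probes: 15 of the large subunit and 8 of the small subunit. RefSeq's table holds 77 protein-coding genes that fit the same symbols, of which 22 carried a probe by platform symbol; the other 55 were not analysed here. The remaining member, Rps4y2, is a synonym of Rps4l in that table.

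The 5 groups were WT mice (C57BL/6) on a high-fat diet with NDGA at 2.5 g per kg of food, WT mice on the high-fat diet alone, ob/ob mice on chow with NDGA at the same dose, ob/ob mice on chow, and WT mice on chow. The diets lasted 16 weeks. The ob/ob mice, also of C57BL/6 background per the labels, lack functional leptin throughout the body, so the 2 NDGA pairs differ in both diet and genotype. RNA of 3 animals per group was used, with no statement of whether it was pooled, and each group has 1 array, so no difference below has a replicate check and none was tested.

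Each ribosome is built from ribosomal RNA and a fixed set of proteins, most of them needed in equal number, and liver makes many ribosomes because hepatocytes secrete most plasma proteins. The messenger RNAs of ribosomal proteins begin with a run of pyrimidines at the cap, the terminal oligopyrimidine tract, through which mTOR and the RNA-binding protein LARP1 adjust their translation. Their output is therefore set largely at translation, which an array of total RNA does not measure. Ribosomal protein genes also have many processed pseudogenes. The array's probe sequences were not used here, so whether a probe also binds related transcripts was not tested.

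Promoters of the members that the results turn on are shown as the sense strand from 60 bases before to 10 bases after the start site annotated by RefSeq (build GRCm38.p6), 5′ to 3′. Capitals mark a C followed by at least 4 pyrimidines at the start site, or the ETS core CCGGAA on either strand, and in Rps27 both overlap. Rpl4, Rpl41 and Rps3 were at least 2-fold higher in one comparison, Rps27 and Rps21 were the next small subunit members in that comparison, and Rpl38 lay at its opposite end. Rps21 has 2 annotated start sites; the site shown holds the core and the pyrimidine run, and the same stretch around the other, farther downstream, holds neither.
Rpl4 (chr9:64173327-64173396, + strand): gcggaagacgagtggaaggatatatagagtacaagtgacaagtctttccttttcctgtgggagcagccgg
Rpl41 (chr10:128549159-128549228, - strand): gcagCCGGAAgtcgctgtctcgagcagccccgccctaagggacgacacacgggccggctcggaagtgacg
Rps3 (chr7:99483700-99483769, - strand): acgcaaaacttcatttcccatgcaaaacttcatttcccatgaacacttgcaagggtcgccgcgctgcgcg
Rps27 (chr3:90213639-90213708, - strand): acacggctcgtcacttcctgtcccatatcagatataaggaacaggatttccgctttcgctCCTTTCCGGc
Rps21 (chr2:180257319-180257388, + strand): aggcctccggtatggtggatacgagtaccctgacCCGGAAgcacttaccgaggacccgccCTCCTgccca
Rpl38 (chr11:114668520-114668589, + strand): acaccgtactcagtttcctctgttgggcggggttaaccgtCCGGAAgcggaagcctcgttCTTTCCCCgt

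Promoter windows of 300 bases, 250 before and 50 after the start site, were found for 19 of the 23 members; Rpl8, Rpl21, Rpl29 and Rps4y2 had no entry. The core CCGGAA, which ETS factors such as GABP recognise, was present on either strand in 12 of the 19 (63.2%), against 16.7% of the 27025 genes in the table. GGGCGG, the core of the GC box bound by Sp1, was in 13 of 19 (68.4%, against 38.2%). The start-site pyrimidine run was at the annotated start of 6 members (31.6%, against 3.01%), namely Rpl14, Rpl28, Rpl35, Rpl38, Rps21 and Rps27. TATAAA on either strand was in Rpl22 and Rplp0 (10.5%, against 15.7%). A match is only a match of letters, and annotated starts can miss the true cap site. The 19 genes had 24 annotated start sites, and a gene was counted when any of its windows held the motif. In the comparison of NDGA in ob/ob mice given below, the 4 members with the pyrimidine run that passed the filter had log2 differences of 0.80 (Rps27), 0.60 (Rps21), -0.10 (Rpl14) and -0.45 (Rpl38), and Rpl4, Rpl41 and Rps3, the highest in it, had no such run at their annotated starts.

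The arrays differed in brightness. The median intensity over all probes was 47.0 in WT mice given high-fat food plus NDGA, 39.6 in WT mice given high-fat food, 71.0 in ob/ob mice with NDGA, 38.1 in ob/ob mice on chow and 38.8 in WT mice on chow. The values below were therefore quantile normalized between arrays, and differences are of log2(normalized intensity + 50). Tissue identity was checked with 7 named hepatocyte markers. On every array 6 of them, among them albumin (Alb), Apoa1, Apob and Hnf4a, were far above the filter described next, the lowest reading of the 6 being 1858. The remaining one, Tat, lay between 16.2 and 50.6. None of the 36 member probes reached 65000, the value taken here as saturation, the highest deposited value among them being 30226.

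A filter on dim genes, which asks for a mean of the arrays compared at or above the median gene (a normalized intensity of about 90.7 in the high-fat comparison), kept the same 16 members in all 4 comparisons. The 7 left out were Rpl28, Rpl35, Rpl37, Rplp0, Rps24, Rps4y2 and Rpsa. Of these, 5 had a deposited intensity below 25 on every array, from 2.40 to 20.2. They include Rplp0, the base of the stalk that recruits elongation factors, and Rpsa, the small subunit protein also described as a laminin receptor, whose highest deposited value was 9.53. Every ribosome holds these proteins, so their dim probes are not read here as a low level of the genes, and the reason for the low readings was not tested. Rps24, which takes part in maturation of the small subunit's RNA, and Rps4y2 lay nearest below the filter. Rps24 had normalized intensities of 45.2 in WT mice given high-fat food plus NDGA, 68.5 in WT mice given high-fat food, 97.0 in ob/ob mice with NDGA, 32.9 in ob/ob mice on chow and 34.1 in WT mice on chow. Rps4y2 had 70.0, 69.1, 113, 49.2 and 74.4 in the same order. Both were brightest on the array of ob/ob mice with NDGA and dimmest on that of ob/ob mice on chow. Just above the filter, Rpl21 had 141, 144, 142, 156 and 150, and Rpl14 had 120, 156, 155, 171 and 140.

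**Figure D1:**
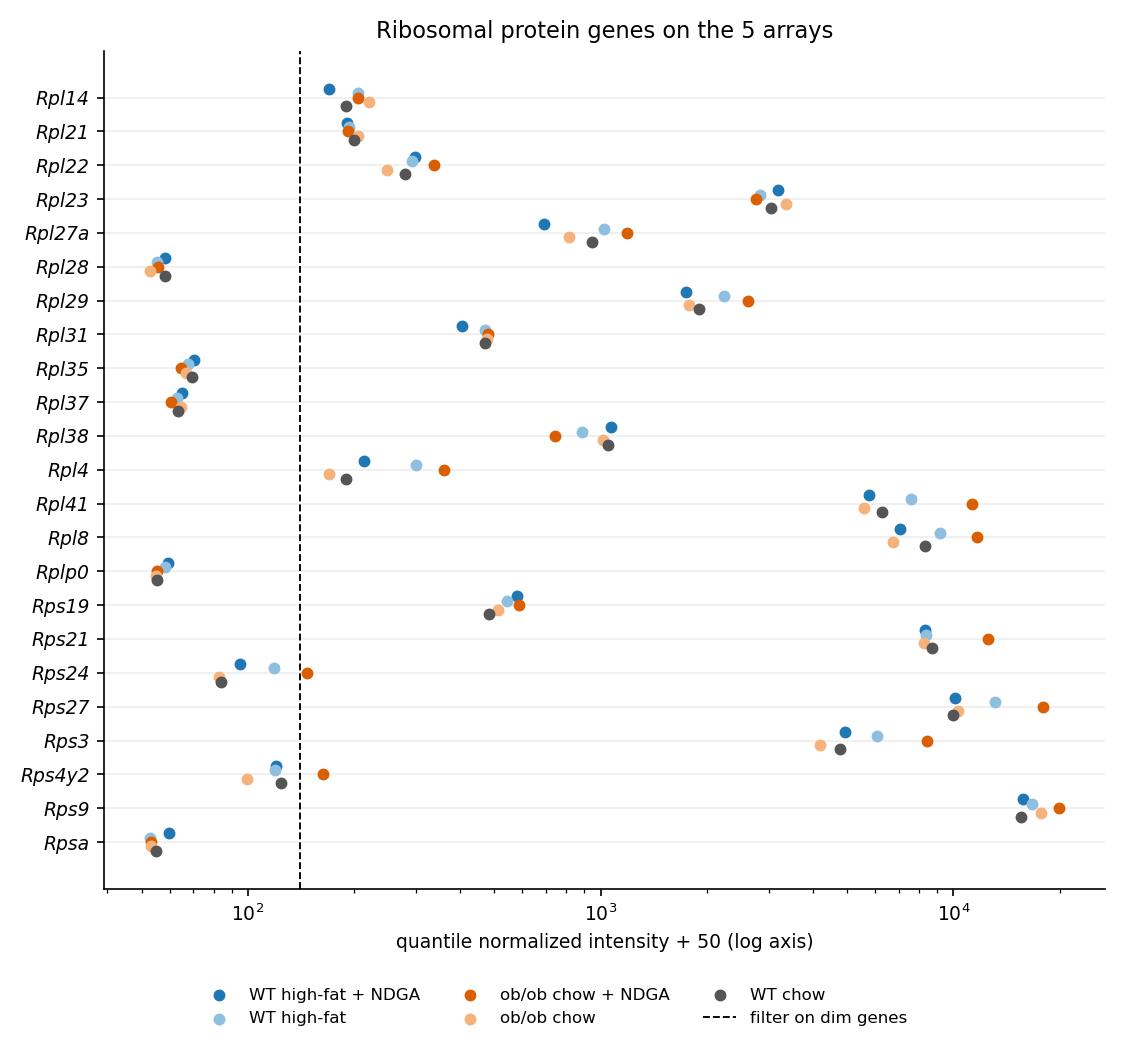
Quantile normalized intensity plus 50 (log axis) of the brightest probe of each of the 23 ribosomal protein genes, with 1 point per array. The dashed line is the filter on dim genes, which applies to the mean of the arrays compared and left out 7 members; in 12 of the other 16 the ob/ob array with NDGA is the highest. Levels of different genes come from different probes and are not comparable with each other.

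Over the 5 arrays, the 16 members varied by about as much as other genes. The gap between a member's highest and lowest array had a median of 0.55 on the log2 scale (1.47-fold), against 0.61 (1.52-fold) for all 8319 genes at or above the median brightness of the 5 arrays. The narrowest gap was that of Rpl21 (0.11) and the widest that of Rpl4 (1.09). Rpl4, Rpl41 and Rps3 spanned at least 2-fold, which is 3 of 16 members against 17.1% of all genes. Their order of arrays was more uneven. The ob/ob array with NDGA was the highest for 12 of 16 members, whereas it was the highest for 30.6% of all genes and the lowest for 35.4%. The ob/ob array on chow was the lowest for 6 members (14.5% of all genes), and the array of WT mice on high-fat diet with NDGA was the lowest for 5 (21.4% of all genes). The array of WT mice on high-fat diet alone was neither the highest nor the lowest for any member.

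In ob/ob mice, the NDGA diet was set against plain chow to see the response to NDGA in genetic obesity. Of the 4 comparisons, this one held the largest differences in the family. Of the 16 members, 12 were higher with NDGA and 4 lower, beside 43.9% of all genes higher. Their median log2 difference was 0.50, against a median of -0.09 over the 8319 genes that passed. At least 2-fold higher were 3 of 16 members, Rpl4, Rpl41 and Rps3, beside 6.80% of all genes, and 0 were at least 2-fold lower, beside 0.493%. Beside these values, the 7 hepatocyte markers did not share a direction: 5 were higher with NDGA and 2 lower, from 1.71 for Cps1, an enzyme of the urea cycle, to -0.64 for Apob. Of 10 macrophage markers 7 were higher with NDGA and 3 lower, with a median of 0.08, and 2 were at least 2-fold higher, beside 6.80% of all genes. Their summed normalized intensity was 12135 with NDGA, against 13771 on chow. Of 10 skeletal muscle markers 8 were higher with NDGA and 2 lower, with a median of 0.43 over all 10 without the filter. At least 2-fold higher were 3 of the 10, beside 3.78% of all genes without the filter. Ckm had 223 with NDGA, against 13.6 on chow, while the muscle marker sums were 3688, against 3233. Of 8 stellate cell markers 5 were higher. The part of cell composition in the family's values was not tested, and in whole liver fewer cells of a type and less RNA per cell cannot be told apart.

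Rpl4, whose long extension lines the tunnel through which the new protein leaves the ribosome, had a normalized intensity of 311 with NDGA, against 120 on chow (2.12-fold, log2 difference 1.09). The other arrays read 164 in WT mice given high-fat food plus NDGA, 250 in WT mice given high-fat food and 139 in WT mice on chow. All 3 WT arrays thus lay between the ob/ob arrays. Rpl41, the smallest ribosomal protein, which sits at the interface of the subunits, had 11242 with NDGA, against 5521 on chow (2.03-fold, 1.02). On the remaining arrays it read 5732 in WT mice given high-fat food plus NDGA, 7520 in WT mice given high-fat food and 6215 in WT mice on chow. Rps3, which lines the channel by which messenger RNA enters the small subunit, had 8379 with NDGA, against 4141 on chow (2.01-fold, 1.01). Its other values were 4893 in WT mice given high-fat food plus NDGA, 6031 in WT mice given high-fat food and 4730 in WT mice on chow. All 3 genes were highest with NDGA in ob/ob mice and lowest on chow in the same genotype.

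Rps27, a zinc-finger protein of the small subunit, followed at 17853 with NDGA, against 10231 on chow (log2 difference 0.80). Rpl8, which lies close to the peptidyl transferase centre, had 11606 with NDGA, against 6685 on chow (0.79). Rps21 had 12458 with NDGA, against 8218 on chow (0.60), and the other 3 arrays lay between 8257 and 8677, so the NDGA array alone stood apart for it. Rpl29, also known as a heparin-binding protein, was at 0.56, Rpl27a at 0.55 and Rpl22, an RNA-binding protein required for normal T cell development in mice, at 0.45. Smaller differences were those of Rps19 (0.19), which is mutated in Diamond-Blackfan anaemia in humans, Rps9 (0.18) and Rpl31 (0.01).

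The 4 members that were lower with NDGA on their brightest probes were all of the large subunit. Rpl38, needed for translation of Hox messenger RNAs in mouse embryos, had 695 with NDGA, against 965 on chow (-0.45). It was lowest on that array among all 5, with 1017 in WT mice given high-fat food plus NDGA, 833 in WT mice given high-fat food and 1001 in WT mice on chow. Rpl23, which can bind and restrain Mdm2, was at -0.28 on its brightest probe but at 1.37 and 1.04 on its others. Rpl14 was at -0.10 and Rpl21 at -0.10, close to the median of -0.09 over all genes. By subunit, all 5 small subunit members that passed were higher (median 0.60), and 7 of 11 large subunit members were (median 0.45); whether the subunits differ was not tested.

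The remaining members are given array by array. Rps27 read 10083 in WT mice given high-fat food plus NDGA, 13073 in WT mice given high-fat food and 9957 in WT mice on chow, so its ob/ob NDGA array at 17853 stood above all others. Rpl8 read 7008, 9124 and 8257 on those 3 arrays, against which its ob/ob arrays lay above and below. Rpl29 had 1691, 2186 and 1850 on the WT arrays in the same order, with 2560 in ob/ob mice with NDGA and 1726 in ob/ob mice on chow. It was thus lowest on the high-fat NDGA array. Rpl27a was lowest there too, with 643, 972 and 898 on the WT arrays, 1140 in ob/ob with NDGA and 765 in ob/ob on chow. Rpl22 read 288 in ob/ob mice with NDGA and 198 in ob/ob mice on chow, with 248, 242 and 229 on the WT arrays. Rps9 lay between 15507 and 19914 and Rps19 between 433 and 536, both highest on the ob/ob NDGA array and lowest on that of WT mice on chow. Rpl31, at the rim of the exit tunnel, read 355 in WT mice on high-fat food plus NDGA and 422 to 431 on the other 4 arrays.

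The ob/ob array with NDGA was the brightest array, and this bears on every value of that comparison. In the deposited values without normalization, all 16 members were brighter with NDGA, by 1.37-fold to 4.60-fold with a median of 2.73-fold. Their median log2 difference was then 1.34, while that of all genes passing the filter was 0.68. Relative to all genes the members stood 0.59 higher after quantile normalization and 0.66 higher without it. The count of members at least 2-fold higher was 11 without normalization (32.5% of all genes) and 7 when arrays were centred on their medians (15% of all genes). The sign of the 4 lower members, Rpl38, Rpl23, Rpl14 and Rpl21, therefore depends on the scaling. Without normalization Rpl38 was at 0.42, Rpl14 at 0.52 and Rpl21 at 0.51, which is still below the 0.68 of all genes. Rpl23 was then at 0.70 on its brightest probe, slightly above all genes. With the 7 dim members included, the family stood 0.22 above all genes in place of 0.59.

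**Figure D2:**
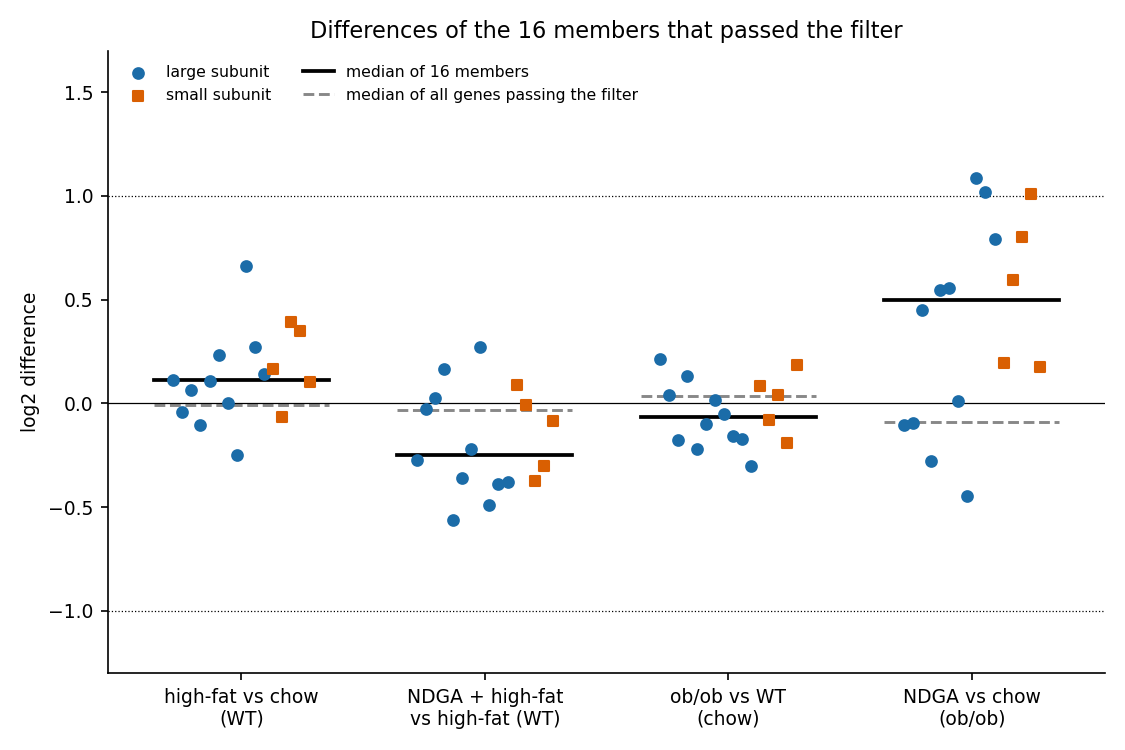
Log2 difference of each of the 16 members that passed the filter in the 4 comparisons, circles for large subunit and squares for small subunit genes. Solid lines give the median of the members and dashed lines that of all genes that passed; the members' median is 0.50 for NDGA in ob/ob mice and -0.25 for NDGA in WT mice on high-fat diet, and dotted lines mark a 2-fold difference.

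The response to NDGA in diet-induced obesity was read from the WT mice on high-fat food. Here 12 of 16 members were lower with NDGA and 4 higher, beside 47.0% of all genes higher. Their median log2 difference was -0.25, against -0.03 for all genes, and 6 of the 16 lay above the median of all genes. None of the 16 was 2-fold apart: 0 were at least 2-fold higher, beside 0.914% of all genes, and 0 lower, beside 1.57%. Rpl27a had 643 with NDGA, against 972 without it (-0.56), and Rpl4 had 164, against 250 (-0.49). Rpl41 was at -0.39, Rpl8 at -0.38, Rps27 at -0.37 and Rpl29 at -0.36. On the other side were Rpl38 (0.27), Rpl23 (0.17), Rps19 (0.09) and Rpl22 (0.03). However, the other probes of Rpl23 were at -0.32 and -0.45. Rpl38 was again opposite to most of the family, with 1017 with NDGA, against 833 without it. The large subunit median was -0.27 (8 of 11 lower) and the small subunit median -0.09 (4 of 5 lower). With the 7 dim members included, the family stood only -0.02 from all genes in place of -0.21. On the same arrays all 10 macrophage markers were lower with NDGA (median -1.01, sums of 5633, against 10702), and 6 of 8 stellate cell markers were (median -0.74). Skeletal muscle markers lay the other way: 9 of 10 were higher with NDGA, with a median of 1.43 over all 10 and a summed normalized intensity of 10234 with NDGA, against 2360 without it. Ckm, the muscle creatine kinase, had 1589, against 13.6. The part of these markers in the family's lower values was not tested.

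Of the 16 members, 10 were lower with NDGA in WT mice and higher with NDGA in ob/ob mice, beside 35.5% of the 8068 genes that passed in both. Another 2, Rpl23 and Rpl38, went the opposite way in each, 2 were higher in both and 2 lower in both. For Rpl23 this holds only on its brightest probe. Its other probes were at -0.32 and -0.45 in WT mice and at 1.37 and 1.04 in ob/ob mice. These comparisons share no array, but the diet differs between them as well as the genotype, so the effects of genotype and diet on the response cannot be told apart.

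The effect of the high-fat diet itself was read in WT mice against their chow-fed group. The members lay close to all genes, with a median of 0.11 against -0.01. Of 16, 12 were higher on the high-fat diet, beside 49.3% of all genes. At least 2-fold higher were 0, beside 2.13% of all genes, and 0 were at least 2-fold lower, beside 1.35%. On the brightest probes Rpl4 differed most, with 250 on high-fat diet, against 139 on chow (0.66). Rps27 read 13073 on high-fat diet, against 9957 on chow (0.39), Rps3 was at 0.35, Rpl41 at 0.27 and Rpl29 at 0.23. The lowest on their brightest probes were Rpl38 (-0.25), Rpl23 (-0.10), Rps21 (-0.07) and Rpl21 (-0.04). However, the other probes of Rpl23 were at 0.28 and 0.91. Rps9 was at 0.10 on its brightest probe and at -0.44 on its other. This comparison and the one of NDGA on high-fat diet share the high-fat array, so a high or low reading there enters them with opposite sign. All 10 macrophage markers were higher on the high-fat diet (median 0.95, sums of 10702, against 6689 on chow), and 7 of 8 stellate cell markers were (median 1.05, sums of 12793, against 6698). Their part in the family's values was not tested.

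Leptin deficiency without a change of diet was read from the ob/ob and WT groups on chow. The members' median was -0.06, against 0.04 for all genes. In ob/ob 7 of 16 were higher and 9 lower, beside 55.8% of all genes higher. Of 16, 0 were at least 2-fold higher, beside 1.03% of all genes, and 0 lower, beside 1.82%. Rpl8 differed most, with 6685 in ob/ob, against 8257 in WT (-0.30), followed by Rpl27a (-0.22), Rps3 (-0.19), Rpl22 (-0.17), Rpl41 (-0.17) and Rpl4 (-0.15). The highest were Rpl14 (0.21), Rps9 (0.18), Rpl23 (0.13) and Rps19 (0.08). On their brightest probes the 16 members thus ran from -0.30 to 0.21, close to the spread of a single probe described next; other probes of Rpl23 and Rps9 were at -0.60 and -0.43. On the same arrays all 10 macrophage markers were higher in ob/ob (median 0.81, sums of 13771, against 6689 in WT), as were all 8 stellate cell markers (median 0.88, sums of 11109, against 6698) and all 6 endothelial markers (median 0.33). Their part in the family's values was not tested. The ob/ob chow array is also the one against which NDGA in ob/ob mice was set, and the WT chow array is also the one against which the high-fat diet was set.

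Probes of the same gene gave the only measure of technical spread. Such probes share the arrays, so their spread holds no variation between animals, RNA preparations or hybridisations. Over the 922 to 939 genes with at least 2 probes passing the filter, the SD per probe was 0.35 for high-fat diet, 0.33 for NDGA on high-fat diet, 0.29 for genotype and 0.46 for NDGA in ob/ob mice, on the log2 scale. Among the members, 6 genes had a second bright probe. In ob/ob mice with NDGA, Rps3 was higher by 1.01 and 1.45, Rpl4 by 1.09 and 0.74 and Rps9 by 0.18 and 0.33 on their 2 probes, and Rpl38 was at -0.45 and -0.42. Rpl27a was at 0.55 on one probe and -0.03 on the other. Rpl23 disagreed most: its brightest probe was at -0.28, but its other 2 probes were at 1.37 and 1.04.

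On the second Rpl23 probe the normalized intensity was 2617 in ob/ob mice with NDGA, against 985 for ob/ob on chow. The brightest probe read 2710, against 3296. The lower value given for Rpl23 therefore holds for only 1 of its 3 probes, and as the mean of all probes the gene was at 0.71. Counting every bright probe in place of the brightest, 17 of 23 were higher and 6 lower with NDGA in ob/ob mice, beside 44.8% higher of the 9367 named probes that passed. At least 2-fold higher were 6 of the 23, beside 7.11% of those probes, and the 6 belong to 4 genes, with 2 probes each of Rpl23 and Rps3. For NDGA on high-fat diet 6 of 23 were higher and 17 lower, beside 46.2% higher of the 9350 named probes that passed. Between ob/ob and WT on chow, 5 of the 6 genes had probes on both sides of 0, namely Rpl23, Rpl27a, Rpl38, Rpl4 and Rps9, with gaps of up to 0.73 log2 units.

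**Figure D3:**
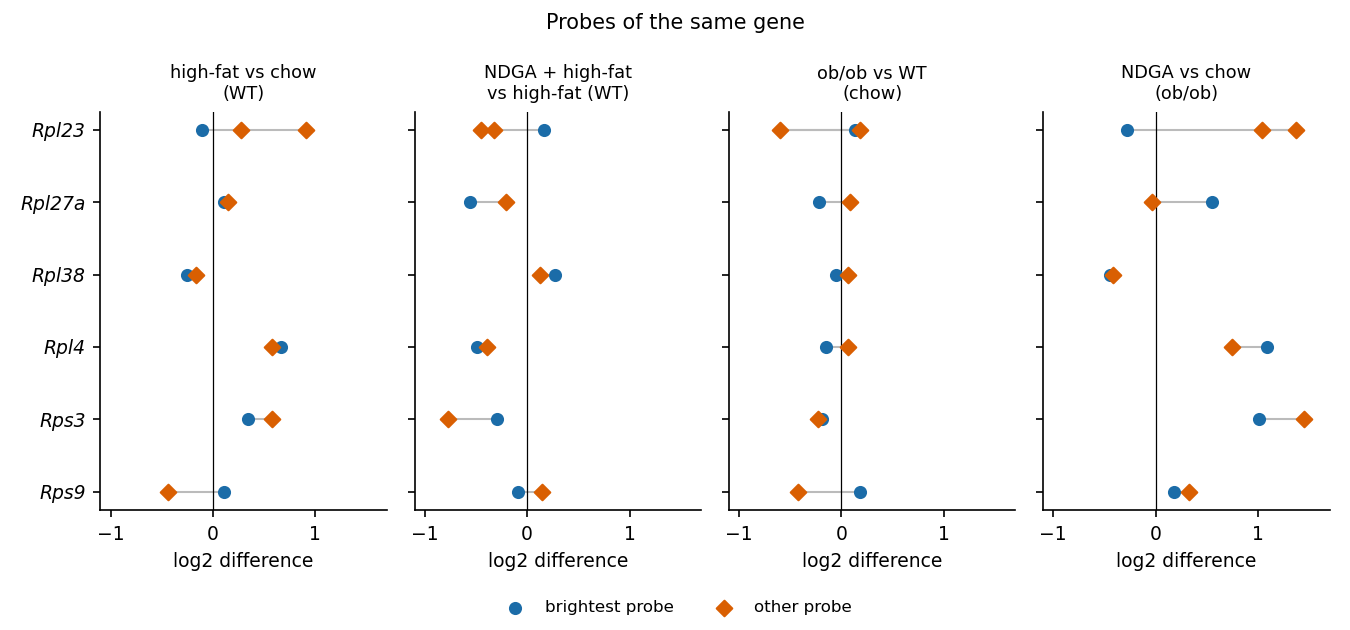
Log2 differences of the individual probes of the 6 members with at least 2 probes passing the filter, a panel per comparison, circles for the brightest probe and diamonds for the others. The 2 probes of Rps3 have the same sign in all 4 panels, whereas the probes of Rpl23 spread from -0.28 to 1.37 for NDGA in ob/ob mice.

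Other genes of protein synthesis and turnover were set beside the family. Mitochondrial ribosomal proteins, which build the separate ribosome of the mitochondrion, had a median of 0.57 over 53 passing genes for NDGA in ob/ob mice, with 46 higher, beside 43.9% of all genes, and 12 at least 2-fold higher, beside 6.80%. Mrpl36 (1.56) and Mrpl1 (1.55) led. For NDGA on high-fat diet their median was -0.32, with 44 of 53 lower and 9 higher, beside 47.0% of all genes higher. The high-fat diet gave 0.30 and ob/ob against WT -0.05. Proteasome subunits, which degrade proteins rather than make them, had medians of 0.66 for NDGA in ob/ob mice (5 of 23 at least 2-fold higher, beside 6.80% of all genes, led by Psmc1 at 1.54) and -0.37 for NDGA on high-fat diet. Initiation factors had 0.53 and -0.47, with Eif3l (1.35) and Eif3h (1.08), subunits of the scaffold complex eIF3, the highest in ob/ob mice. The medians of these lists lay on the same side of all genes as that of the cytosolic ribosomal proteins for both NDGA comparisons and for high-fat diet, so the direction was not particular to ribosomal proteins.

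Elongation factors lay closer to all genes, with a median of 0.15 over 10 genes for NDGA in ob/ob mice. Eef1d, part of the exchange factor of eEF1A, had 0.99, and Eef2, which moves the ribosome along the messenger, had -0.90. The deposited values of Eef2 were 13168 with NDGA, against 11360 on chow, so its sign depends on the scaling. Without normalization the median log2 difference of all genes was itself 0.68. Ribosome biogenesis genes had a median of 0.38 over 19 genes, with Ebna1bp2 (1.25), a nucleolar assembly factor, the highest. Of the ribosome-bound and fusion proteins, all 5 named passed, with a median of -0.12; Naca, a subunit of the nascent chain-associated complex, was at 0.66.

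**Figure D4:**
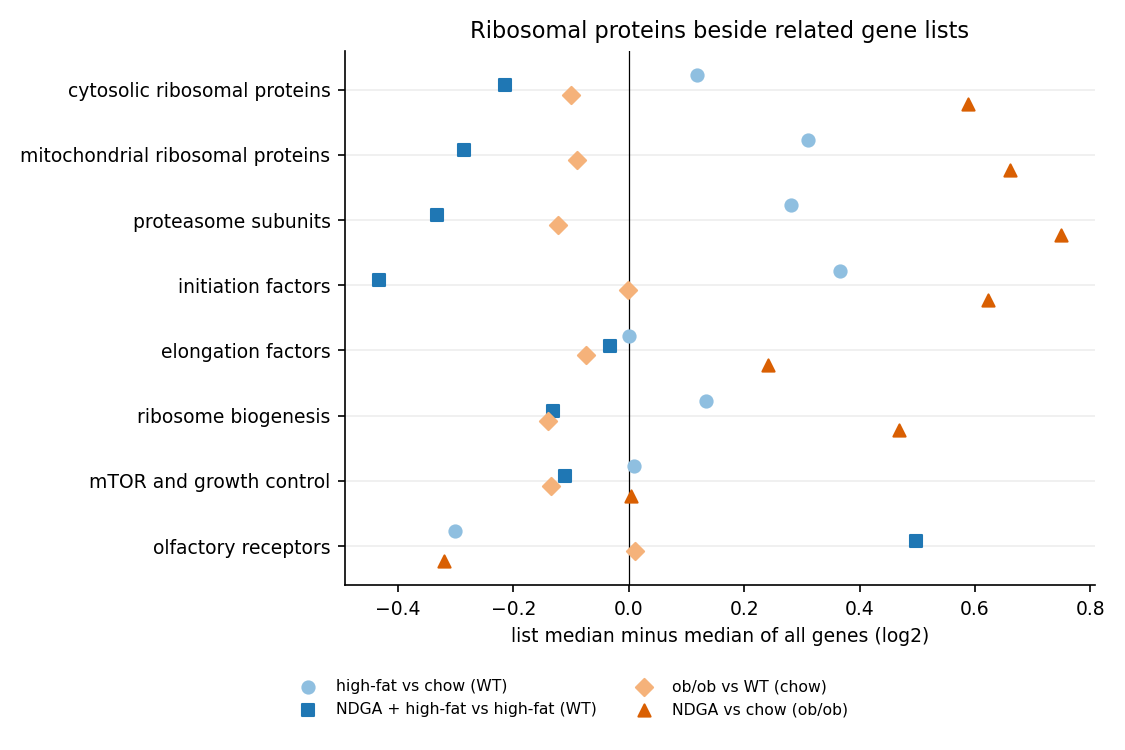
Median log2 difference of each list minus the median of all genes that passed the filter, for the 4 comparisons. The cytosolic ribosomal proteins lie at 0.59 for NDGA in ob/ob mice and -0.21 for NDGA on high-fat diet, on the same side of 0 as the mitochondrial ribosomal proteins, proteasome subunits and initiation factors, while the olfactory receptor genes lie on the opposite side in both.

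Olfactory receptor genes served as a list foreign to liver. Their median was -0.41 for NDGA in ob/ob mice (156 passing genes), 0.47 for NDGA on high-fat diet (168) and -0.31 for high-fat diet (161). In these 3 comparisons they lay opposite to the ribosomal proteins, and their part in the ribosomal protein values was not tested.

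Ribosomal protein paralogs were read separately. Rps27l, a paralog of Rps27 that responds to p53, had a normalized intensity of 17929 with NDGA in ob/ob mice, against 8524 on chow (log2 difference 1.07). It read 9536 in WT mice on high-fat diet with NDGA, against 15083 without it (-0.66), so its directions were those of Rps27. Rpl7l1 was at 0.26 and -0.79. Rpl3l, the paralog of Rpl3 used by heart and skeletal muscle, had a normalized intensity of 196 in WT mice given high-fat food plus NDGA, against 36.7 without NDGA (1.50), and lay between 26.9 and 86.4 on the other 3 arrays. It passed the filter only in that comparison and only through the NDGA array. The skeletal muscle markers were high on the same array, as given above, and their part in the Rpl3l value was not tested.

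Genes mutated in Diamond-Blackfan anaemia, an anaemia of defective ribosome production in humans, numbered 5 of the 18 listed on the array, and 3 passed. These were Rpl31, Rps19 and Rps27, with a median of 0.19 for NDGA in ob/ob mice and -0.22 for NDGA on high-fat diet. Of the stalk, only Rplp0 was named, and it did not pass. The 2 proteins of the particle around the smallest large-subunit RNA, Rpl5 and Rpl11, were not analysed here.

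**Figure D5:**
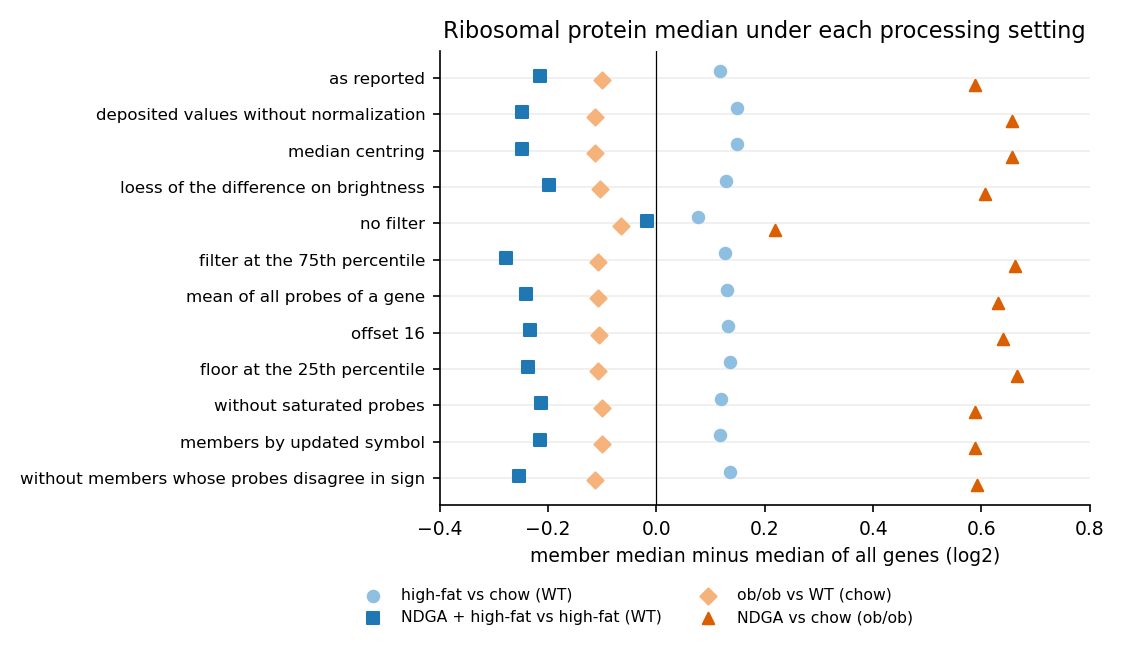
Median log2 difference of the ribosomal proteins minus that of all genes, under the reported processing and the 11 alternatives, for the 4 comparisons. For NDGA in ob/ob mice it stays between 0.22 and 0.67, and the lowest value is the one without the filter, which adds the 7 dim members.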

How the data were processed

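Total liver RNA was labelled with Cy5 and hybridised in 1 colour, per the labels' protocols. The deposited values are linear probe intensities. Values below 0 show that a background had been subtracted. Which scanner, background correction or scaling the authors used is not stated in the labels. The 29922 probes were named through the platform table, in which 21020 carried 1 symbol, 0 several and 8902 were unnamed here. Membership went by the platform symbol. Other symbols were brought up to date with RefSeq's gene table (GRCm38.p6), which replaced 3410 by a synonym that points to 1 gene. Of the 16637 genes that resulted, each was read from its brightest probe by mean over the 5 arrays.

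The array medians differed by 0.46 on the log2 scale, so the deposited intensities were quantile normalized over the 5 arrays and log2(value + 50) was taken. The offset shrinks differences and folds of dim genes. A gene passed the filter in a comparison when its mean over both arrays reached the median gene, as 8319 genes did. A log2 difference of 1, a fold of 2, was the size counted. Each group has 1 array, so no test, error or p-value was computed; the number of arrays limits the precision. Named genes are members, and from each other list up to 4 genes passing the filter with the largest difference. The members, lists and settings were chosen with earlier results of these data known. The processing was varied in 10 ways, of normalization, filter, offset, probe choice, saturated probes and symbols, and in 1 further way chosen after the values were seen. The steps were tested on simulated data, with Python 3.11.15, pandas 2.3.3, numpy 2.4.6 and statsmodels 0.14.6.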

Additional observations from a re-analysis of the deposited data

Results flagged for a closer look

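Between the arrays with and without NDGA, the difference went opposite ways in ob/ob mice on chow and in WT mice on high-fat diet. This held for the median of the 16 members that passed the filter and for single members. The difference was not tested, since each group has 1 array, and the diet differs along with the genotype. The members' median was 0.50 in ob/ob and -0.25 in WT, a gap of 0.74 on the log2 scale. With the dim members included, the family stood 0.22 above all genes in ob/ob and only -0.02 from all genes in WT. The SD per probe, 0.46 in ob/ob and 0.33 in WT, holds no variation between animals or hybridisations. The members named next had opposite signs and exceeded that SD in each comparison. Rpl4 was at 1.09 in ob/ob and -0.49 in WT, a gap of 1.57. Rpl41 was at 1.02 and -0.39, a gap of 1.41. For Rpl8 the gap was 1.17 and for Rps27 it was 1.17 as well. Rpl27a had a gap of 1.11, but its second probe was at -0.03 in ob/ob. Rpl29 had a gap of 0.92. Rpl41, Rpl8, Rps27 and Rpl29 rest on 1 probe each. Rps3 was higher by 1.01 in ob/ob, and in WT its brightest probe was at -0.30, inside the SD per probe, with its second probe at -0.77.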

How the results depend on the processing

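The processing was varied by 10 alternatives and by 1 chosen after the values were seen, which left out members whose probes disagreed. Under all of them the members' median relative to all genes kept its sign in all 4 comparisons, although not all could move it. It ran from 0.22 to 0.67 for NDGA in ob/ob, from -0.28 to -0.02 for NDGA on high-fat diet, from 0.08 to 0.15 for high-fat diet and from -0.11 to -0.06 for ob/ob against WT, and the value nearest 0 was in each case that without the filter, where dim members entered. Without normalization the median for NDGA in ob/ob was 1.34 and 11 members were at least 2-fold higher; with median centring 7 were, against 3 as reported. Of 672 values of single members, 34 moved by more than the SD per probe and 0 of the values at least 2-fold apart changed sign; 16 of the 34 were those of NDGA in ob/ob without normalization. Leaving out saturated probes could not change a count of members, since no member probe reached the saturation value on any array. Using updated symbols changed no count of members that passed the filter. Rps4y2, the member whose platform symbol is a synonym, passed the filter in no comparison, so its renaming could not change these counts. No paired analysis was possible because each group has 1 array. Dim members limit the family: 7 of 23 did not pass the filter.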

Other observations

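Genes of mTOR and growth control did not share a direction. They include activators and inhibitors of mTOR as well as transcription factors, so their median does not measure mTOR activity. Over 17 passing genes their median was -0.09 for NDGA in ob/ob mice, equal to that of all genes, and -0.14 for NDGA on high-fat diet. In ob/ob mice Mtor, the kinase itself, was at 0.94 (normalized intensity 601 with NDGA, against 290 on chow). Its inhibitors Tsc2 and Deptor were at 0.91 and 0.85. Larp1, which binds the pyrimidine tract of ribosomal protein messengers, was at -0.76, although its deposited values were 7565 with NDGA, against 6343 on chow. On high-fat diet Myc, a transcription factor that drives ribosome production, was at 0.73 with NDGA. Tsc2 was at -0.74 in the same comparison, with a normalized intensity of 69.8 with NDGA, against 150 without it. Tsc2 passed the filter, at about 91.2 in that comparison, only through the array without NDGA.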
